A study of Mus musculus with 6 samples.

Results

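Oligodendrocyte lineage and myelin genes were examined as a set of 31 genes, chosen by symbol from the 55414 genes of the deposited hippocampal expression table. Each of the 31 symbols matched 1 row, and all 31 passed the minimum of a mean of 1 TPM (a length-scaled transcript abundance, set relative to the total of its library). The set held 15 genes of mature myelin (Mbp, Mog, Mag, Mobp, Cnp, Cldn11, Mal, Opalin, Ermn, Aspa, Gjb1, Trf, Myrf, Hapln2 and Ppp1r14a) and 11 genes of precursors (Pdgfra, Cspg4, Gpr17, Bmp4, Enpp6, C1ql1, Neu4, Vcan, Lhfpl3, Matn4 and Olig1). The remaining 5 were lineage factors and others (Olig2, Sox10, Nkx2-2, Gpr37 and Tspan2). RNA came from the hippocampus of mice given CerM (3 libraries) or vehicle (3 libraries). The labels do not spell out CerM or give its dose, its duration, or the strain, sex and age of the mice. The titles call the libraries of a group biological replicates without saying whether they stem from different animals. The p-values therefore reflect only how far these libraries vary, which may be technical. The title of the study concerns gut bacteria, ceramides and corticosterone-induced depression, and the design compares gene expression between both treatments.

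Oligodendrocytes wrap axons of the central nervous system in myelin, a stack of membrane rich in cholesterol and galactosylceramide and held together by a small number of abundant proteins. They arise from dividing precursors that carry the growth factor receptor encoded by Pdgfra and the proteoglycan encoded by Cspg4. Precursors pass through a committed stage marked by Gpr17, Bmp4 and Enpp6, and then switch on myelin genes under the transcription factors encoded by Sox10 and Myrf. In the hippocampus, myelin lies mainly in the alveus, the fimbria and the deeper layers of the subfields.

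The stretches of DNA upstream of 6 members are printed here as examples, because they differ in the short motifs they hold. RefSeq promoter windows of build GRCm38.p6 were available for 24 of the 31 members. Windows for Mbp, Trf, Myrf, Gpr17, C1ql1, Olig1 and Sox10 were not used here. Each window covers the 250 bases before an annotated start, 5′ to 3′ on the gene's strand. Capitals mark the searched motifs on either strand, namely ACAAAG or ACAATG for SOX factors, CTGGCAC or CTGGTAC for MYRF, and CAGCTG or CATATG, both E-boxes. No marked motif overlaps another in these 6 windows.
Mog, chr17:37023399-37023648, minus strand: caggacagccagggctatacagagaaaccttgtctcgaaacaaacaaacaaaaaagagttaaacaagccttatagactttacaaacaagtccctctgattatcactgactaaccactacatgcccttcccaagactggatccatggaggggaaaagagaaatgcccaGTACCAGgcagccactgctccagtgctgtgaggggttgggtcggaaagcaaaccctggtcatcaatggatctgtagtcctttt
Cnp, chr11:100574689-100574938, plus strand: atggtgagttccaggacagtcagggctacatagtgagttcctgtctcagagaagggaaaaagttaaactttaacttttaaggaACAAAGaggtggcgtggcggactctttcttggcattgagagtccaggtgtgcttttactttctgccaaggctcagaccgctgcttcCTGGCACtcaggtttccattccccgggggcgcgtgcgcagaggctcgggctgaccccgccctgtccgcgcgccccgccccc
Hapln2, chr3:88027512-88027761, minus strand: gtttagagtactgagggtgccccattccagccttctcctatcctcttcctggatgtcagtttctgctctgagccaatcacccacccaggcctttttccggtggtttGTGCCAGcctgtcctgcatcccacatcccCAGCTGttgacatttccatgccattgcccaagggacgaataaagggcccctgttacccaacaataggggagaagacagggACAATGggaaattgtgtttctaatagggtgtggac
Mobp, chr9:120149492-120149741, plus strand: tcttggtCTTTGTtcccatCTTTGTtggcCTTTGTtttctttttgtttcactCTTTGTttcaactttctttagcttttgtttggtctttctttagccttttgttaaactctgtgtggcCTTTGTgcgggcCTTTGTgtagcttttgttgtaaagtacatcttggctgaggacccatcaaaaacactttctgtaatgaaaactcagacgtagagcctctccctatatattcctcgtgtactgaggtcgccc
Vcan, chr13:89742513-89742762, minus strand: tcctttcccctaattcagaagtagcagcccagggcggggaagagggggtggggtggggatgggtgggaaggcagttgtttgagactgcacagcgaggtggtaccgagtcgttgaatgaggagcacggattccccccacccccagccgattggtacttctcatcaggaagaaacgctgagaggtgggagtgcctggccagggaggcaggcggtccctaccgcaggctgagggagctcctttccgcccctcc
Bmp4, chr14:46390670-46390919, minus strand: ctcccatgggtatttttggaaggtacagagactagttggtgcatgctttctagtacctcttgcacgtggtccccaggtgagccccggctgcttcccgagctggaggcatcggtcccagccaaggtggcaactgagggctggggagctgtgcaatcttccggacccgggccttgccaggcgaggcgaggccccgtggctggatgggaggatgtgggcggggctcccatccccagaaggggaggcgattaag

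The Mog window holds a MYRF motif, the Cnp window a SOX and a MYRF motif, and the Hapln2 window a motif of each kind. The Mobp window holds ACAAAG 6 times on the opposite strand, and the Vcan and Bmp4 windows hold none of the motifs. These 6 windows do not stand for their stages. Windows of the mature genes Mal, Cldn11 and Ppp1r14a also hold none, and those of the precursor genes Enpp6 and Lhfpl3 hold motifs. A MYRF motif stood in windows of 4 member genes, Mog, Mag, Cnp and Hapln2, all among the 12 mature genes with a window and none among the 8 precursor genes with a window. Of all 32851 RefSeq windows outside chromosome 18, 5.93% hold a MYRF motif. SOX motifs stood in windows of 7 of the 12 mature genes and 1 of the 8 precursor genes, against 25.2% of all windows. E-boxes stood in windows of 3 mature genes and 1 precursor gene, against 16.1% of all windows. By window, 12 of 31 member windows held a SOX motif, 5 a MYRF motif and 6 an E-box. Several genes have more than 1 window, among them Gjb1 with 4 and Mag with 3. A gene was counted if any of its windows held the motif, whereas the shares are of single windows. The counts by gene can therefore run higher than these shares, and only the counts by window use the same unit. Overlapping windows of Mag hold the same SOX and MYRF motifs, which the counts by window include more than once. These matches describe letters in the windows only.

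The libraries differed in markers of adjacent tissue before any comparison by treatment. Whether such tissue was carried into the libraries was not tested. Markers of choroid plexus, the epithelium that makes cerebrospinal fluid, summed to 9358, 312 and 11013 TPM in CerM replicates 1 to 3, against 255, 265 and 15797 TPM in vehicle replicates 1 to 3. Most of that sum was Ttr, which encodes the transthyretin carrier. Fat markers summed to 906 TPM in CerM replicate 3 and to between 15.5 and 25.7 TPM in the other 5 libraries. Scores, the mean over a list of log2(TPM + 1) minus each gene's mean over the 6 libraries, set vehicle replicate 1 apart. Its score was 0.695 for neocortex markers, against −0.225 to −0.087 in the other 5 libraries, and −0.47 for hippocampal neuron markers, against −0.028 to 0.18. Of the 11 neocortex markers tested, 9 were highest in vehicle replicate 1 and 1, Crym, was lowest there. Of the 12 hippocampal neuron markers, 7 were lowest in vehicle replicate 1 and 3 were highest there, namely Snap25, Syt1 and Calb1. The summed TPM of that list was highest in vehicle replicate 1, at 3744 TPM, against 3130 to 3433 TPM in the other 5 libraries. Hippocampal markers were present in every library, with Spink8, a gene of hippocampal pyramidal cells, at 54.0, 50.5 and 57.7 TPM in CerM libraries and 32.9, 66.6 and 59.6 TPM in vehicle libraries. Of 8 markers of Schwann cells, the myelinating cells of peripheral nerve, 4 were below the minimum of a mean of 1 TPM, among them Pmp2, Prx and Ncmap, each at or below 0.72 TPM in all 6 libraries. The other 4 were Pmp22 (22.6 to 37.4 TPM over the 6 libraries), Drp2 (11.0 to 16.2 TPM), Cdh19 (1.83 to 3.11 TPM) and Egr2 (0.40 to 3.48 TPM). The list summed to 42.1, 54.4 and 53.0 TPM in CerM libraries, against 43.5, 40.3 and 47.9 TPM in vehicle libraries, and its part in the myelin values was not tested. Precision rests on 3 libraries per group, because TPM keeps no sequencing depth.

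**Figure D1:**
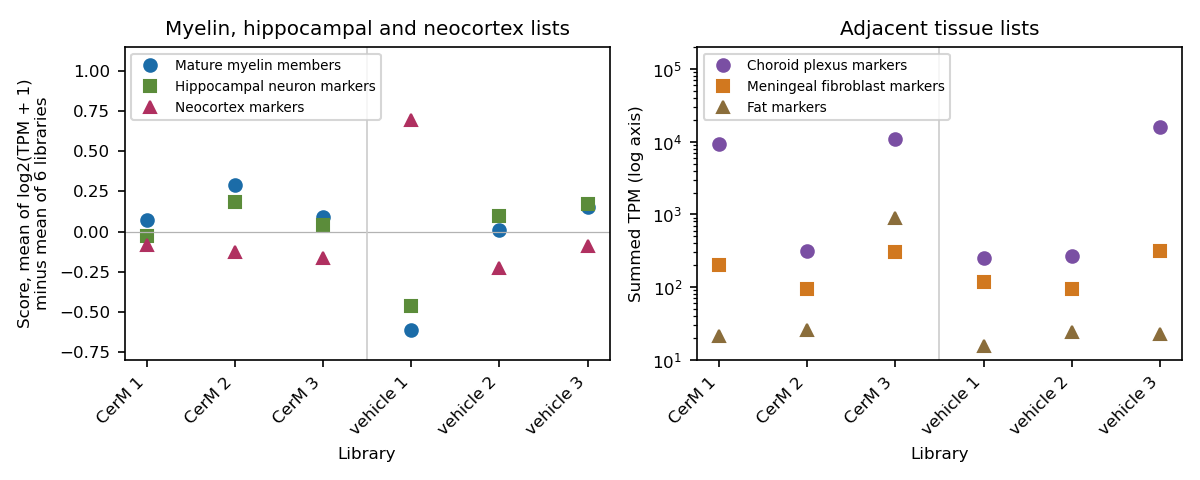
Left, scores per library for the mature myelin members, hippocampal neuron markers and neocortex markers (mean of log2(TPM + 1) minus the mean of 6 libraries). Right, summed TPM per library on a log axis for choroid plexus, meningeal fibroblast and fat markers. By score, vehicle replicate 1 stands lowest for myelin (−0.61) and hippocampal neurons (−0.47) and highest for neocortex (0.695). The summed TPM of the hippocampal neuron markers, not drawn here, was highest in vehicle replicate 1. Choroid plexus markers are high in CerM replicates 1 and 3 and vehicle replicate 3.

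Members spanned a wide range of levels. Mbp, which encodes the basic protein that seals the inner faces of myelin, had the highest mean at 3819 TPM, followed by Mobp at 764 TPM and Trf at 419 TPM. Nkx2-2, a transcription factor of the lineage, had the lowest mean, at 2.30 TPM. The 15 mature genes together held 0.62%, 0.73% and 0.64% of TPM in CerM replicates 1 to 3, against 0.39%, 0.60% and 0.70% in vehicle replicates 1 to 3. Vehicle replicate 1 was low, and vehicle replicate 3 exceeded 2 of the 3 CerM libraries. The 11 precursor genes held 0.015%, 0.015% and 0.013% in CerM libraries, against 0.011%, 0.014% and 0.017% in vehicle libraries.

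No member differed between CerM and vehicle libraries by the test used. The test, limma on log2(TPM + 1) over all 14916 genes with a mean of at least 1 TPM, called 0 of the 31 members at a Benjamini-Hochberg adjusted p below 0.05, against 0% of all genes. At an unadjusted p below 0.05 there were 0 members, against 2.7% of all genes. The smallest adjusted p among members was 0.9895. In bulk tissue, fewer cells of a type and less RNA per cell cannot be told apart. The 95% confidence interval of the fit lay within 2-fold of TPM + 1 on either side for 28 of the 31 members. The exceptions were Mag, Hapln2 and Bmp4, whose intervals reached beyond 2-fold.

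Genes of mature myelin lay above 0 without exception when all 6 libraries were used. All 15 had a log2 fold change above 0, against 58.8% of all genes tested, and their median was 0.31, against 0.034 over all genes. The estimates ran from 0.062 for Ermn to 0.46 for Mag. Most of that difference depended on vehicle replicate 1. Without it, 12 of the 15 lay above 0, against 51.1% of all genes, and the median was 0.055, against 0.0031 over all genes. Leaving out any other single library kept the median between 0.24 and 0.47.

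Compact myelin genes, which encode the proteins of the tightly packed membrane, followed this pattern. Mbp had 3782, 4629 and 3839 TPM in CerM libraries, against 2455, 3801 and 4407 TPM in vehicle libraries. Its log2 fold change was 0.24 ± 0.21 (SE, limma adjusted p 0.9895), and −0.0095 without vehicle replicate 1. Mbp was lowest in vehicle replicate 1 and highest in CerM replicate 2, and the groups overlapped. Mobp, which encodes a second basic protein of compact myelin, had 788, 819 and 864 TPM in CerM libraries, against 515, 764 and 834 TPM in vehicle libraries. Its 3 CerM values lay close together, and vehicle replicate 3 lay between CerM replicates 2 and 3. The Mobp log2 fold change was 0.25 ± 0.17 (SE) with all libraries and 0.044 without vehicle replicate 1. Mal, a raft protein of membrane sorting, averaged 202 ± 5.96 TPM in CerM and 173 ± 40.8 TPM in vehicle (SD, n = 3 each). Cldn11, the claudin that forms tight junctions between myelin layers, averaged 178 ± 13.3 and 147 ± 41.8 TPM in CerM and vehicle libraries.

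Surface and adhesion genes of myelin included the member whose groups stood apart on the higher side. Mog, which encodes a glycoprotein of the outermost myelin surface and whose upstream window is printed above, had 88.2, 106.5 and 89.1 TPM in CerM libraries, against 51.9, 82.1 and 87.0 TPM in vehicle libraries. The lowest CerM value exceeded the highest vehicle value by a narrow margin. The log2 fold change was 0.39 ± 0.20 (SE, limma adjusted p 0.9895), and it was 0.16 without vehicle replicate 1. Groups stood apart with CerM higher for 1 of 31 members, against 3.26% of all genes tested. Mag, which encodes the adhesion protein facing the axon, averaged 243 ± 57.6 TPM in CerM and 185 ± 74.0 TPM in vehicle (SD, n = 3 each), and its groups overlapped. The Mag log2 fold change was 0.46 with all libraries and 0.11 without vehicle replicate 1. Opalin, a transmembrane protein of the myelin loops, averaged 38.1 ± 6.06 and 34.4 ± 11.2 TPM in CerM and vehicle libraries. Its log2 fold change of 0.19 turned to −0.10 without vehicle replicate 1. Ermn, which encodes a cytoskeletal protein of the outer myelin lip, was lower in CerM replicate 2 (26.2 TPM) than in CerM replicates 1 and 3 (36.1 and 31.9 TPM) and vehicle replicates 2 and 3 (32.4 and 35.0 TPM). The Ermn log2 fold change was 0.062 with all libraries, −0.11 without vehicle replicate 1 and −0.042 without CerM replicate 1.

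Enzymes, carriers and channels of oligodendrocytes came next. Cnp, a cyclic nucleotide phosphodiesterase of non-compact myelin, had 302, 383 and 303 TPM in CerM libraries, against 179, 279 and 335 TPM in vehicle libraries. CerM replicate 2 was highest, vehicle replicate 1 was lowest, and the other 4 libraries were mixed. The Cnp log2 fold change was 0.35 ± 0.22 (SE), and 0.098 without vehicle replicate 1. Trf, which encodes the iron carrier transferrin, had 457, 456 and 499 TPM in CerM libraries, against 256, 374 and 472 TPM in vehicle libraries. Trf had the smallest unadjusted p of the members (0.088), with a log2 fold change of 0.40 ± 0.20 (SE, limma adjusted p 0.9895), and its groups overlapped through vehicle replicate 3. It was 0.16 without vehicle replicate 1. Choroid plexus also makes transferrin, and vehicle replicate 3, with the highest choroid plexus sum, held the highest Trf value of its group. CerM replicate 2, with a choroid plexus sum of 312 TPM, had nearly the same Trf level as CerM replicate 1, with a sum of 9358 TPM. The part of choroid plexus in the Trf values was not tested. Aspa, the enzyme that splits N-acetylaspartate, averaged 23.2 ± 0.98 TPM in CerM and 20.6 ± 4.91 TPM in vehicle (SD, n = 3 each). Gjb1, a connexin of gap junctions, ranged from 15.7 to 21.7 TPM among CerM libraries and from 10.1 to 22.2 TPM among vehicle libraries.

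The remaining mature genes were of moderate or low level. Myrf, the transcription factor that drives myelin genes, averaged 22.7 ± 4.31 TPM in CerM and 17.9 ± 6.13 TPM in vehicle (SD, n = 3 each). Hapln2, a link protein of the matrix at nodes of Ranvier, averaged 16.3 ± 3.94 and 11.7 ± 3.39 TPM in CerM and vehicle libraries. Without vehicle replicate 1, Ppp1r14a and Hapln2 had the highest log2 fold changes of the 15, at 0.29 and 0.21. Ppp1r14a, which encodes an inhibitor of a protein phosphatase, averaged 7.17 ± 1.31 TPM in CerM and 5.59 ± 2.12 TPM in vehicle, and it alone of the 15 was lowest in vehicle replicate 3 (3.89 TPM) and not in vehicle replicate 1 (4.93 TPM).

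**Figure D2:**
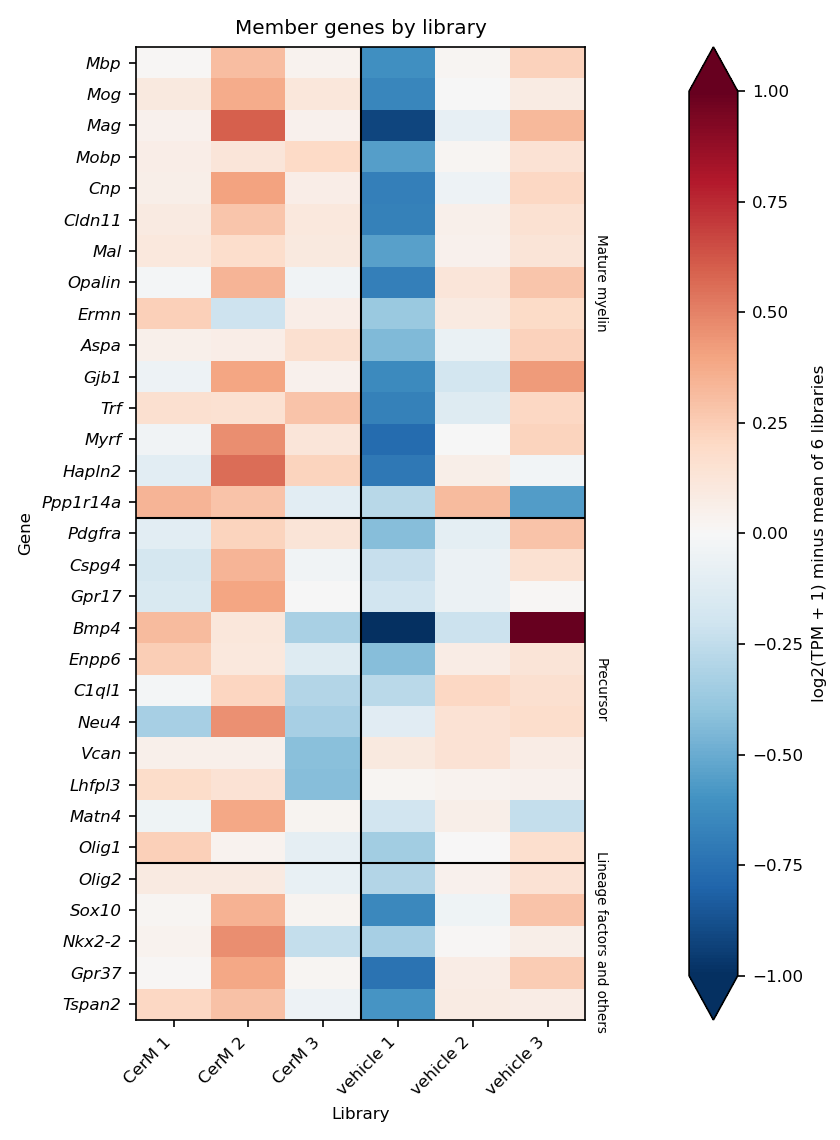
Each row is a member gene and each column a library, and colour gives log2(TPM + 1) relative to the gene's 6-library mean, capped at 1 on either side (exceeded by Bmp4). The column of vehicle replicate 1 is the lowest in 14 of 15 mature genes, 6 of 11 precursor genes and 5 of 5 lineage factors and others.

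Library order within the set was uneven. Vehicle replicate 1 had the lowest value in 25 of the 31 members (80.6%), against 32.8% of all genes tested. CerM replicate 2 had the highest value in 18 members (58.1%), against 41.1% of all genes tested. Relative to the mean of vehicle replicates 2 and 3, vehicle replicate 1 stood at a median of 59.8% in mature genes, 79.0% in precursor genes, 62.2% in lineage factors and others, and 93.9% over all genes tested. Among mature genes that figure ran from 48.0% for Mag to 83.2% for Ppp1r14a. Vehicle replicate 1 also had the highest neocortex score (0.695) and the lowest hippocampal neuron score (−0.47), and the part of these in its low myelin values was not tested.

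Genes of precursors lay closer to 0 and in both directions. Of 11, 7 had a log2 fold change above 0, against 58.8% of all genes tested, and the median was 0.090, against 0.034 over all genes tested. Without vehicle replicate 1, only 2 lay above 0, Gpr17 and Matn4, against 51.1% of all genes tested, and the median was −0.025. The median also depended on the other libraries. It was 0.030 without CerM replicate 1, −0.0014 without CerM replicate 2, 0.14 without CerM replicate 3 and 0.19 without vehicle replicate 3.

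Receptors of precursors did not separate the treatments. Pdgfra, the receptor for platelet-derived growth factor that keeps precursors dividing, had 10.8, 13.8 and 12.9 TPM in CerM libraries, against 8.48, 10.9 and 14.5 TPM in vehicle libraries. Its highest and lowest values were both in vehicle libraries. Its log2 fold change was 0.16 ± 0.20 (SE), and −0.011 without vehicle replicate 1. Fibroblasts of the meninges also express Pdgfra, and meningeal fibroblast markers summed to 199, 94.1 and 301 TPM in CerM libraries, against 117, 95.5 and 309 TPM in vehicle libraries, a sum that includes Pdgfra. Their part in the Pdgfra values was not tested. Gpr17, a receptor of committed precursors that restrains maturation, had 13.1, 19.6 and 14.6 TPM in CerM libraries, against 12.7, 14.1 and 14.8 TPM in vehicle libraries. CerM replicate 2 stood above the other 5 libraries, which lay between 12.7 and 14.8 TPM. The Gpr17 log2 fold change was 0.16 ± 0.16 (SE), and −0.0014 without CerM replicate 2.

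Among secreted signals, Bmp4 varied more than any other member. Bmp4, a ligand of the bone morphogenetic protein family that blocks oligodendrocyte maturation, had 9.40, 8.04 and 5.66 TPM in CerM libraries, against 1.44, 6.17 and 29.7 TPM in vehicle libraries. Both extremes were vehicle libraries, 20.6-fold apart, while the median member differed 1.89-fold between its highest and lowest library. The Bmp4 log2 fold change was 0.074 ± 0.80 (SE), with a 95% confidence interval of −1.80 to 1.945. It was −0.79 without vehicle replicate 1 and 1.03 without vehicle replicate 3. It was −0.067 without CerM replicate 1, 0.034 without CerM replicate 2, 0.25 without CerM replicate 3 and −0.017 without vehicle replicate 2. Vehicle replicate 3 also had the highest choroid plexus sum (15797 TPM) and vehicle replicate 1 the lowest (255 TPM), but CerM replicate 2 held 8.04 TPM of Bmp4 with a sum of 312 TPM and CerM replicate 3 held 5.66 TPM with a sum of 11013 TPM. The part of choroid plexus in the Bmp4 values was not tested. C1ql1, a secreted protein of the C1q family, averaged 6.91 ± 1.38 TPM in CerM and 7.26 ± 1.43 TPM in vehicle (SD, n = 3 each).

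Matrix genes of precursors included the member whose groups stood apart on the lower side. Vcan, which encodes the proteoglycan versican, had 2.91, 2.90 and 1.83 TPM in CerM libraries, against 3.03, 3.18 and 2.97 TPM in vehicle libraries. The gap between the groups was small beside the distance from CerM replicate 3 to the other CerM libraries. The log2 fold change was −0.21 ± 0.19 (SE, limma adjusted p 0.9895), and it shrank to −0.056 without CerM replicate 3, the library with fat markers. Groups stood apart with CerM lower for 1 of 31 members, against 4.04% of all genes tested. In either direction, groups stood apart for 2 of 31 members, against 7.3% of all genes tested. Matn4, a matrilin of the extracellular matrix, had the smallest unadjusted p of the precursor genes (0.21). It had 4.52, 6.45 and 4.80 TPM in CerM libraries, against 4.0, 4.94 and 3.82 TPM in vehicle libraries, so the groups overlapped through vehicle replicate 2. Cspg4, the surface proteoglycan of precursors, averaged 7.65 ± 1.64 TPM in CerM and 7.08 ± 1.06 TPM in vehicle (SD, n = 3 each).

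The other precursor genes were an enzyme pair, a membrane protein and a transcription factor. Enpp6, a choline phosphodiesterase of newly forming oligodendrocytes, averaged 3.91 ± 0.63 TPM in CerM and 3.46 ± 0.88 TPM in vehicle (SD, n = 3 each). Neu4, a sialidase, averaged 3.74 ± 1.60 and 4.06 ± 0.53 TPM in CerM and vehicle libraries. Lhfpl3 averaged 9.64 ± 2.33 TPM in CerM and 9.92 ± 0.089 TPM in vehicle. Its 3 vehicle values lay between 9.82 and 9.99 TPM, and the CerM spread came from CerM replicate 3 at 6.96 TPM. Olig1, a basic helix-loop-helix factor of the whole lineage, had 75.3, 65.3 and 59.8 TPM in CerM libraries, against 49.9, 64.0 and 71.6 TPM in vehicle libraries. The groups overlapped, with a log2 fold change of 0.12 ± 0.15 (SE), and −0.025 without vehicle replicate 1.

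The 5 lineage factors and others were all lowest in vehicle replicate 1, and 4 of them were highest in CerM replicate 2. All 5 lay above 0 with all libraries, against 58.8% of all genes tested, with a median of 0.26. Without vehicle replicate 1, 3 of 5 lay above 0, against 51.1% of all genes tested, with a median of 0.0091. The median was 0.15 without CerM replicate 2 and 0.40 without vehicle replicate 3. Sox10, which activates myelin genes together with Myrf, had 28.7, 36.2 and 28.9 TPM in CerM libraries, against 17.8, 27.5 and 34.7 TPM in vehicle libraries. Olig2, needed to specify the lineage, had 18.4, 18.4 and 16.3 TPM in CerM libraries, against 13.8, 17.8 and 19.1 TPM in vehicle libraries. Both genes overlapped between the groups, and Olig2 spanned 1.38-fold from its lowest to its highest library against 2.04-fold for Sox10. Without vehicle replicate 1, the log2 fold change was 0.0091 for Sox10 and −0.059 for Olig2. Tspan2, a tetraspanin of oligodendrocytes, had the smallest unadjusted p of the 5 (0.18), with 60.3, 64.0 and 50.2 TPM in CerM libraries, against 34.2, 55.2 and 54.9 TPM in vehicle libraries. CerM replicate 3 lay below vehicle replicates 2 and 3. The Tspan2 log2 fold change was 0.29 with all libraries and 0.071 without vehicle replicate 1. Gpr37, a receptor that restrains maturation, had 34.9, 45.6 and 35.2 TPM in CerM libraries, against 20.5, 36.5 and 41.6 TPM in vehicle libraries. Its log2 fold change of 0.27 turned to −0.026 without vehicle replicate 1. Nkx2-2 averaged 2.52 ± 0.88 TPM in CerM and 2.08 ± 0.44 TPM in vehicle (SD, n = 3 each).

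**Figure D3:**
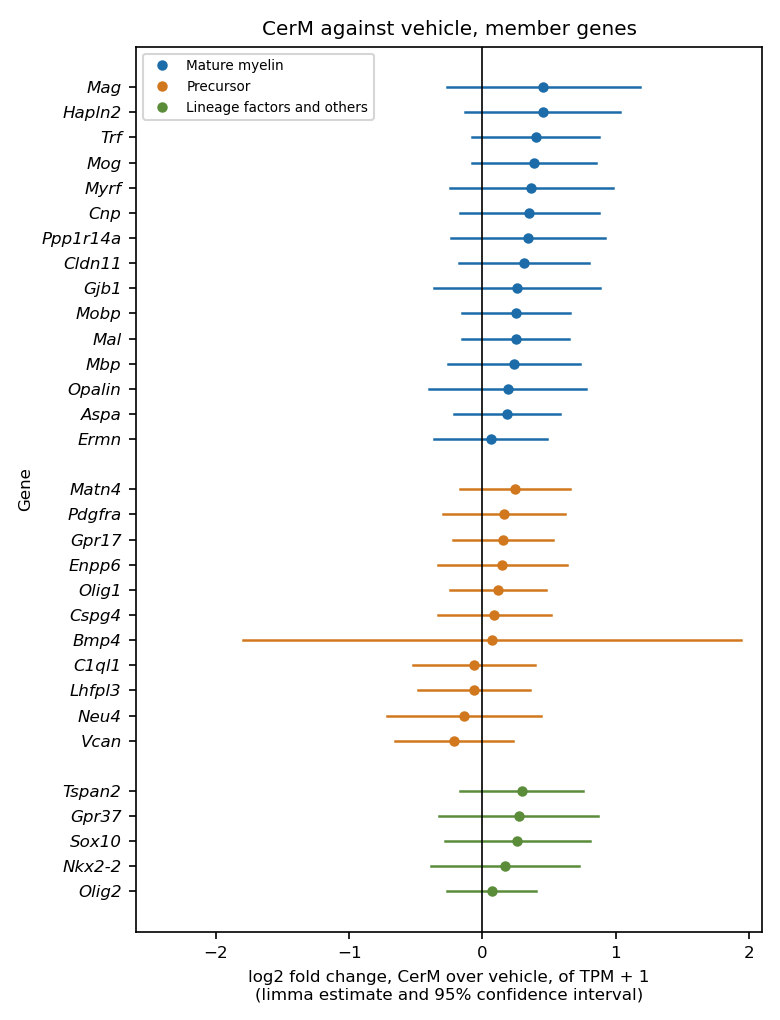
Points are limma estimates of the log2 fold change of TPM + 1, CerM over vehicle, with 95% confidence intervals, sorted within each stage. All 31 intervals include 0, the 15 mature estimates lie above 0, and the precursor estimates lie on both sides of it.

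**Figure D4:**
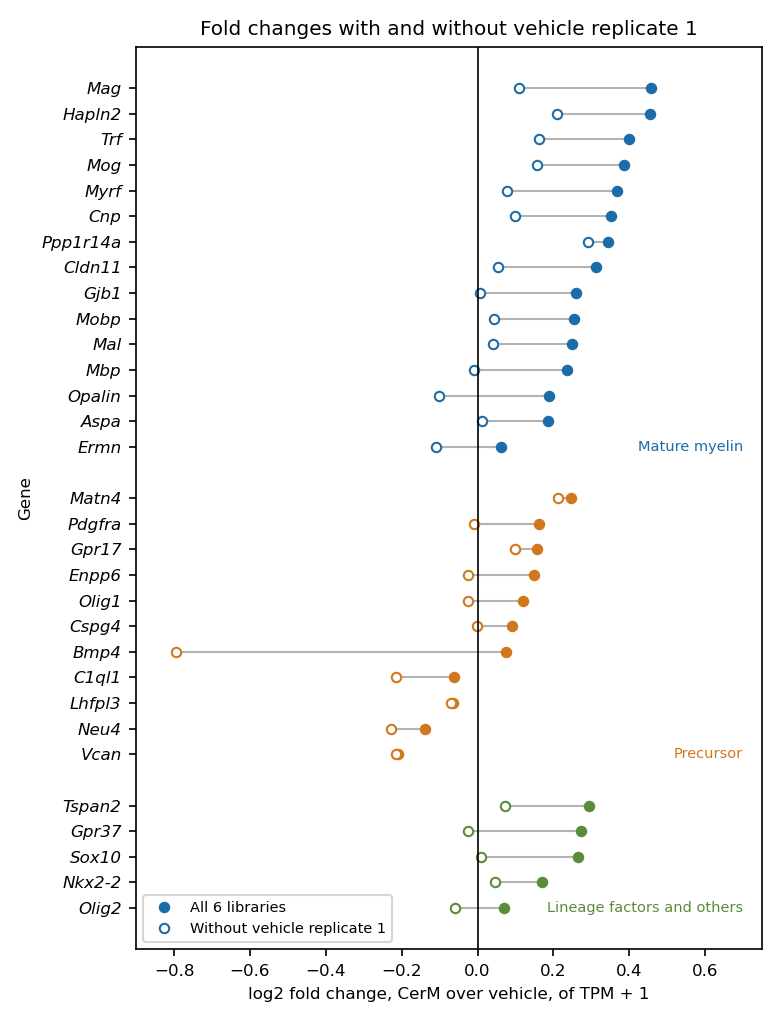
Filled points give the log2 fold change of TPM + 1 (CerM over vehicle) with all 6 libraries, and open points the same without vehicle replicate 1. The median of the mature genes lies at 0.31 with that library and at 0.055 without it, and the median of the precursor genes at 0.090 and −0.025.

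Stages were contrasted within each library, which sets mature against precursor genes of the same RNA. The mature score was 0.070, 0.29 and 0.093 in CerM replicates 1 to 3, against −0.61, 0.012 and 0.15 in vehicle replicates 1 to 3. The precursor score was 0.019, 0.22 and −0.17 in CerM libraries, against −0.35, 0.022 and 0.26 in vehicle libraries. The mature score minus the precursor score was 0.051, 0.063 and 0.27 in CerM libraries, against −0.26, −0.010 and −0.11 in vehicle libraries. The groups of this difference did not overlap, and their means of 0.13 ± 0.12 and −0.13 ± 0.13 (SD, n = 3 each) lay 0.25 apart in CerM and vehicle libraries. The gap was 0.19 without vehicle replicate 1 and 0.18 without CerM replicate 3. It was 0.116 without CerM replicate 3 and vehicle replicate 1 together. Bmp4 weighed on the precursor scores of vehicle replicates 1 and 3. They were −0.35 and 0.26 with it, and −0.21 and 0.094 without it. With Bmp4 left out of the precursor score, a choice made after its values were seen, the differences were 0.082, 0.053 and 0.25 in CerM libraries, against −0.41, −0.034 and 0.055 in vehicle libraries. The gap between the means was then 0.26, and the groups overlapped, with CerM replicate 2 (0.053) below vehicle replicate 3 (0.055). Much of that gap came from vehicle replicate 1, at −0.41. Leaving out Bmp4 and vehicle replicate 1 together was not tried. CerM replicate 3, with the lowest precursor score of its group, was the lowest library for Vcan, Lhfpl3 and C1ql1. No test was made on these scores, since their genes were picked with earlier results of these data known.

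**Figure D5:**
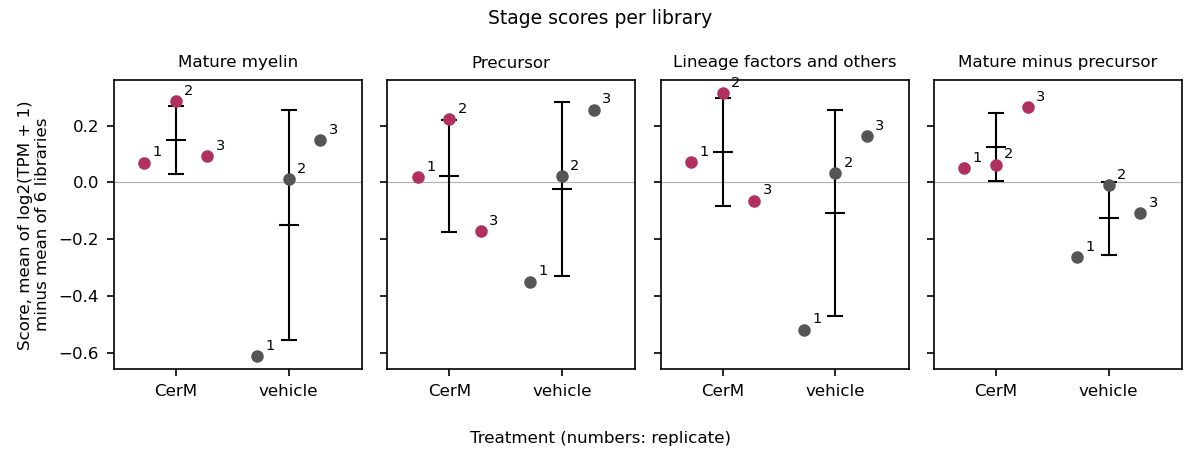
Scores per library (mean of log2(TPM + 1) minus the mean of 6 libraries) for the 3 stages and for mature minus precursor, with CerM left and vehicle right. Bars give the mean and SD of 3 libraries and numbers name the replicate, and the mature minus precursor values run from 0.051 to 0.27 in CerM and from −0.26 to −0.010 in vehicle.

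Other genes of the lineage were read from 3 further lists of 70 genes, of which 69 were tested. Of these, 0 were called at an adjusted p below 0.05, against 0% of all genes, and 0 had an unadjusted p below 0.05, against 2.7%. Over all genes tested, 58.8% lay above 0, and 51.1% did so without vehicle replicate 1. Of 30 other genes of mature oligodendrocytes, 28 lay above 0 (median log2 fold change 0.21), and 19 did so without vehicle replicate 1 (median 0.043). Of 20 other genes of precursors and committed precursors, 17 lay above 0 (median 0.15), and 14 did so without vehicle replicate 1 (median 0.046). The score of the other mature genes minus that of the other precursor genes, a comparison added after the data were seen, was 0.055, −0.018 and 0.037 in CerM libraries, against −0.18, 0.038 and 0.070 in vehicle libraries. These groups overlapped, and their means lay 0.049 apart, against 0.25 for the members. Of 19 tested regulators of myelin assembly, 14 lay above 0 (median 0.15), and 10 did so without vehicle replicate 1 (median 0.041).

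Groups stood apart with CerM higher in 7 of these 69 genes and with CerM lower in 0, against 3.26% and 4.04% of all genes tested. Sox8, a relative of Sox10 in the lineage, had 22.8, 24.4 and 23.1 TPM in CerM libraries, against 17.0, 20.8 and 20.4 TPM in vehicle libraries. Its log2 fold change was 0.26 ± 0.11 (SE, limma adjusted p 0.9895). Chd7, a chromatin remodeller that acts with Sox10, had 3.86, 5.07 and 2.79 TPM in CerM libraries, against 2.09, 2.67 and 2.52 TPM in vehicle libraries, and had the smallest unadjusted p of the 69 (0.051). Without vehicle replicate 1, the log2 fold change was 0.18 for Sox8 and 0.42 for Chd7. Its direction could not turn in genes whose groups stand apart. Tgfb1, a cytokine, averaged 4.77 ± 1.01 TPM in CerM and 3.39 ± 0.17 TPM in vehicle (SD, n = 3 each). Jag1, a Notch ligand, averaged 2.32 ± 0.54 and 1.71 ± 0.13 TPM in CerM and vehicle libraries. The Notch ligand and the cytokine are also made by blood vessels and immune cells. Sox4, Gpr62 and Fgf2 completed the 7, with log2 fold changes of 0.23, 0.17 and 0.23. Without vehicle replicate 1 these were 0.18, 0.15 and 0.051, and those of Tgfb1 and Jag1 were 0.35 and 0.26.

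Other glial lists gave the setting for these values. Astrocyte markers had a score of −0.036, 0.19 and 0.094 in CerM libraries, against −0.23, −0.084 and 0.057 in vehicle libraries, with 9 of 10 genes above 0 and a median log2 fold change of 0.19. Without vehicle replicate 1, 9 of these 10 lay above 0 with a median of 0.11, against a median of 0.055 for the mature myelin members. Groups stood apart with CerM higher for 2 of the 10 astrocyte markers, against 3.26% of all genes tested. Microglia markers had a score of −0.057, 0.12 and −0.093 in CerM libraries, against −0.0090, 0.042 and −0.0080 in vehicle libraries. Of these 10 genes, 4 lay above 0, both with and without vehicle replicate 1. Over all genes tested, 58.8% lay above 0 with all libraries and 51.1% without vehicle replicate 1. CerM replicate 2 had the highest score for mature myelin, lineage factors, astrocyte and microglia markers. It also had the highest score for hippocampal neuron markers (0.182) and for thalamus and striatum markers (0.174). That library held the highest value in 41.1% of all genes tested. Vehicle replicate 1 had the lowest astrocyte score but lay within the range of the others for microglia.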

How the data were processed

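RNA-seq of total hippocampal RNA was analysed in 6 mouse libraries, 3 CerM and 3 vehicle, grouped by title. RNA was extracted with TRIzol and DNase I and made into TruSeq libraries, per the labels' protocols. Per the submitters' processing notes, the tools were RSEM, StringTie and HISAT2 and the build GRCm39; neither their roles nor their versions are stated. The authors deposited TPM values with 2 decimals, which sum to 993379 to 995403 per library and keep no depth. No 2 libraries held identical values. How reads shared by related genes or overlapping transcripts were divided is not given in the sources used here.

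Genes with a mean of at least 1 TPM (14916) entered a limma fit (version 3.58.1, R 4.3.3) of log2(TPM + 1) using a variance trend, two-sided, Benjamini-Hochberg adjusted over all tested genes and called below 0.05. A fold change on this scale understates the change of low genes. The fit was tested on simulated data. Lists are described by counts, medians and scores with no test. The members and lists were chosen with earlier results of these data known. Every member is named. Values in each library are given for the 4 members of highest mean TPM per stage, members with an unadjusted p below 0.05 or groups that do not overlap, and the smallest p per stage. Of other lineage lists, up to 6 genes per list with an unadjusted p below 0.05 or groups apart are named. Spink8 and the examples given as means were added after their values were seen. Promoter windows come from RefSeq, GRCm38.p6, a different build from GRCm39, and no other coordinates are used. Alternatives changed the pseudocount, TPM minimum, scaling, variance model, sample weights, replicate block and libraries used. Tables and figures used Python 3.11.15 with numpy 2.4.6, pandas 2.3.3 and matplotlib 3.10.9.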

Additional observations from a re-analysis of the deposited data

How the results depend on the processing

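No member was called under any of the 17 alternative settings. Few genes of any kind were called in them, at most 7 of 14916, without CerM replicate 3. The smallest limma adjusted p among members lay between 0.216 (Trf, sample weights) and 1. The mature median was above 0 in all 17 settings, from 0.055 without vehicle replicate 1 to 0.47 without vehicle replicate 3, and was 0.16 with sample weights and 0.081 without CerM replicate 3 and vehicle replicate 1 together. The replicate block, the lack of a variance trend and the changed TPM minimum could not move the mature median, because they leave the estimates of these genes unchanged. With 1 library left out, the precursor median ran from −0.025 to 0.19 and its count above 0 from 2 to 9, and the count of lineage factors and others from 3 to 5. Sample weights gave 3 of the 5 lineage factors and others above 0, and precursor and lineage medians of 0.0063 and 0.011. The precursor median was 0.0085 under quantile scaling and 0.058 under median-ratio scaling. The mature minus precursor gap was 0.116 without CerM replicate 3 and vehicle replicate 1 together, 0.25 at a pseudocount of 0.1 and 0.32 under quantile scaling. Leaving Bmp4 out, a choice made after seeing the data, gave a precursor median of 0.10 and a gap of 0.26. Much of that gap came from vehicle replicate 1, and the groups overlapped.

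Signs of single members also turned. Sample weights gave −0.098 for Nkx2-2, −0.16 for Ppp1r14a, −0.058 for Enpp6, −0.048 for Olig2 and −0.075 for Opalin, and quantile scaling −0.012 for Bmp4. Without CerM replicate 3 and vehicle replicate 1 together, values were −0.020 for Aspa, −0.61 for Bmp4, −0.13 for Ermn, −0.035 for Pdgfra, −0.0043 for Olig2, −0.037 for Opalin and 0.13 for Lhfpl3. With 1 library left out, ranges crossed 0 for Bmp4 (−0.79 to 1.03), Ermn (−0.11 to 0.18), Nkx2-2 (−0.019 to 0.33), Cspg4 (−0.058 to 0.20), Gpr17 (−0.0014 to 0.27), C1ql1 (−0.21 to 0.069), Lhfpl3 (−0.17 to 0.13) and Pdgfra (−0.011 to 0.34). They also did for Enpp6 (−0.025 to 0.25), Olig2 (−0.059 to 0.16), Gpr37 (−0.026 to 0.47), Mbp (−0.0095 to 0.41), Olig1 (−0.025 to 0.23) and Opalin (−0.10 to 0.38). The cause was not tested.

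The deviations of same-numbered CerM and vehicle libraries correlated at 0.0083, 0.20 and 0.22 over genes for replicates 1 to 3. Those of differently numbered libraries ran from −0.207 to 0.065. These values do not settle whether the numbers pair libraries, and the main fit treated them as unpaired. With the replicate number as a block, 0 members were called, against 0 of all genes, and 3 members had an unadjusted p below 0.05, against 3.33% of all genes. The medians of 0.31, 0.090 and 0.26 could not change under the block, since each number holds 1 library per group. The count at an unadjusted p below 0.05 was also above 0 in 4 other settings. It was 5 without vehicle replicate 3 (6.48% of all genes), 4 with sample weights (18.1%), 1 under quantile scaling (2.99%) and 1 without vehicle replicate 2 (1.96%). The depth behind each value is unknown, and 5 members had a mean under 5 TPM.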
